A study of Mus musculus with 12 samples.

Results

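The genes described here encode the enzymes of glycolysis and gluconeogenesis, most of them as sets of isozymes, with a few regulators of these steps. They were chosen as 33 symbols, matched to probe sets of the array that name a single gene. Of the 33, 30 had such a probe set, out of 18194 genes with one, and they were carried by 63 of 45101 probe sets. Gpi1, Pfkfb1 and Eno1 had no probe set of this kind in the annotation used and were not analysed here. Glyceraldehyde-3-phosphate dehydrogenase (Gapdh) was read by the 3 control probe sets of the array alone. All animals were female Ghsr−/− mice, which lack the receptor for acylated ghrelin, on a C57BL/6 background at 12 weeks of age, so the controls carried the deletion as well. They were injected intraperitoneally with unacylated ghrelin (UAG) at 20 nmol/kg, or with saline, and tissues were taken 6 h later. RNA of M. vastus lateralis (muscle), of white fat from the gonadal depot (WAT) and of liver gave 12 Affymetrix arrays, 2 per tissue and treatment. The labels do not tie arrays of different tissues to a mouse.

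Glycolysis splits glucose into pyruvate in the cytosol, and gluconeogenesis runs most of the same reactions backwards to make glucose. The irreversible steps have an enzyme for each direction: hexokinase against glucose-6-phosphatase, phosphofructokinase against fructose-1,6-bisphosphatase, and pyruvate kinase against pyruvate carboxylase with phosphoenolpyruvate carboxykinase. Liver exports glucose in fasting and uses its own isozymes at several steps, skeletal muscle burns glucose and glycogen for contraction, and white fat turns glucose into the glycerol backbone of triglyceride.

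The arrays of a tissue resembled each other closely, with correlations of 0.951 to 0.962 among WAT arrays, of 0.938 to 0.951 for muscle and of 0.925 to 0.946 for liver, against 0.739 to 0.909 between tissues. Defining markers matched the labelled tissues, but some arrays held markers of other cells. Skeletal fibre markers summed to 86020 to 90880 intensity units in muscle, 5 hepatocyte markers to 65100 to 91480 in liver, and 4 adipocyte markers to 37630 to 45680 in WAT. The same 4 adipocyte markers summed to 22480 to 33440 in muscle, where Adipoq was at 7674 to 11936, against at most 388 in liver. The 6 brown adipocyte markers summed to 20020 on the first WAT saline array, against 1966 to 4076 on the other WAT arrays. In muscle they summed to 14530 to 22150, of which Cox8b and Cox7a1, which skeletal muscle also expresses, made 62.4% to 78.5%. The other 4 brown adipocyte markers summed to 3121 to 8326 in muscle, to 13640 on the first WAT saline array and to 1082 to 2787 on the other WAT arrays. That WAT array also held skeletal fibre RNA, with Ckm at 613 against 24.3 to 40.7 on the others, and all 6 fibre markers above the other WAT arrays. The second WAT saline array stood apart in 6 smooth muscle markers, which summed to 30980 there against 6087 to 6974. The second muscle UAG array was high in 5 neutrophil markers (6888 against 224 to 456), and the first muscle saline array was low in 4 slow-fibre markers (1107 against 4651 to 4995). The second muscle saline array was high in 6 epithelial and mesothelial markers (2753 against 127 to 706). That sum came mainly from Krt8, Krt18 and Krt19, while Msln and Upk3b stayed under 30 in muscle. Gapdh 3′/5′ ratios lay between 0.668 and 0.779, and those of Actb between 0.898 and 1.13 in muscle and between 1.70 and 2.35 in WAT and liver.

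**Figure D1:**
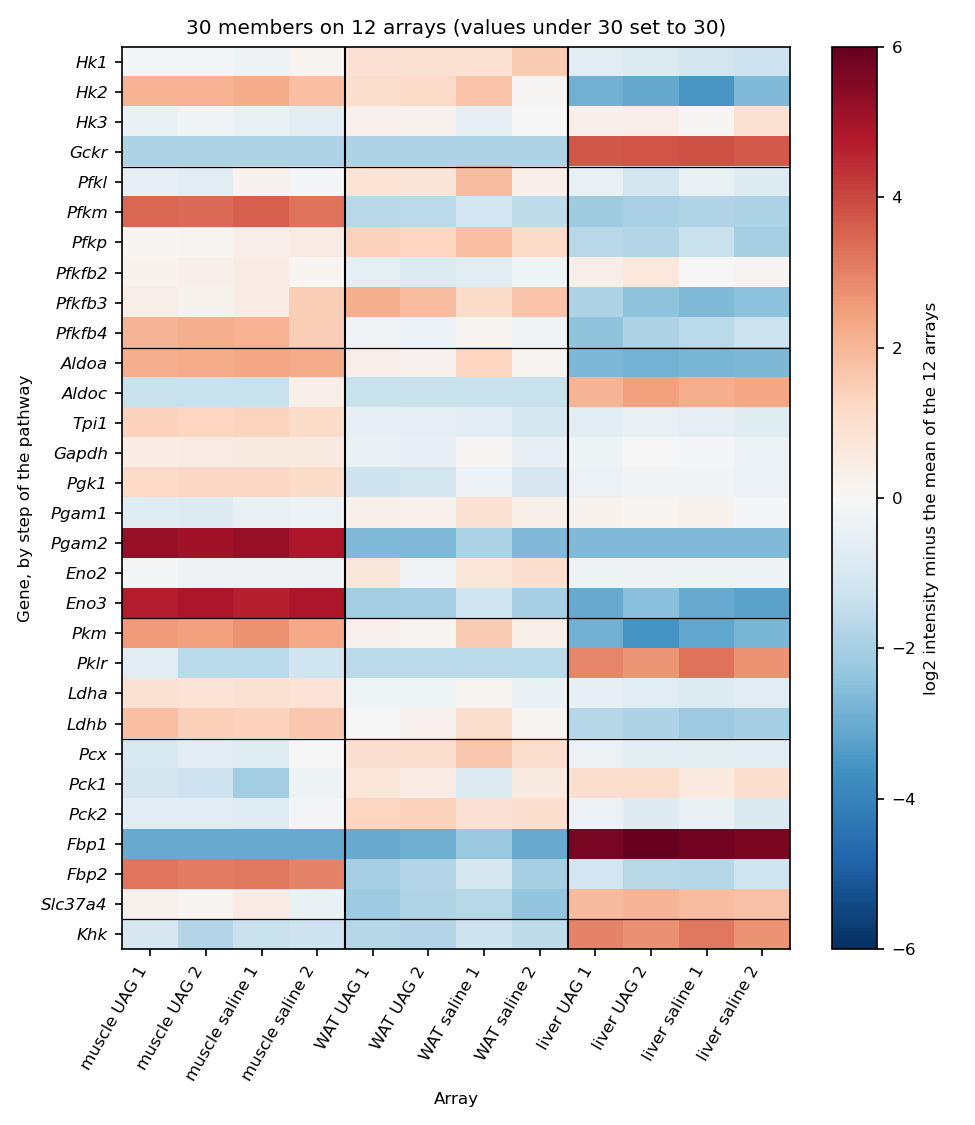
Log2 normalized intensity of the 30 measured genes on the 12 arrays, each row shown as the difference from its mean over the arrays, with intensities under 30 set to 30. Columns are arrays by tissue, with UAG left of saline, and the strongest contrasts are Fbp1 (high in liver) and Pgam2 and Eno3 (high in muscle).

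Levels differed between tissues for nearly every isozyme gene. With limma on all 12 arrays, 29 of the 30 genes were bright enough to be tested (a mean intensity of at least 30), and Eno2 was not. In muscle against liver 25 of 29 passed the threshold of an adjusted p of 0.05, 16 higher and 9 lower, where 66.3% of all 12595 genes tested passed, 35.2% higher and 31.1% lower. In WAT against liver 23 of 29 passed, 15 higher and 8 lower, beside 62.9% of all genes, 35.6% higher and 27.3% lower. In muscle against WAT 23 of 29 passed, 15 higher and 8 lower, beside 55.9% of all genes, 23% higher and 32.9% lower. These shares of called genes lay somewhat above those of all genes, and the shares with large differences lay further above. At least 4-fold differences were called for 16 genes in muscle against liver (55.2%, beside 14.7% of all genes), 13 in WAT against liver (44.8%, beside 13.6%) and 7 in muscle against WAT (24.1%, beside 4.84%). The median absolute log2 difference of the 29 genes was 2.98, 1.72 and 1.19 in the 3 comparisons, beside 0.65, 0.59 and 0.49 over all genes. Differences between tissues are given as log2 differences ± SE, with 4 arrays per tissue. In these bulk tissues, fewer cells of a type and less RNA per cell cannot be told apart.

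By these calls 13 genes stood in muscle above both other tissues (44.8% of 29, beside 16.3% of all genes), namely Hk2, Pfkm, Pfkfb4, Aldoa, Tpi1, Gapdh, Pgk1, Pgam2, Eno3, Pkm, Ldha, Ldhb and Fbp2. Liver stood above both for 6 genes, Gckr, Aldoc, Pklr, Fbp1, Slc37a4 and Khk (20.7%, beside 20.4%). WAT stood above both for 7 genes, Hk1, Pfkl, Pfkp, Pfkfb3, Pgam1, Pcx and Pck2 (24.1%, beside 19.2%). The shares for liver and WAT were near the background.

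**Figure D2:**
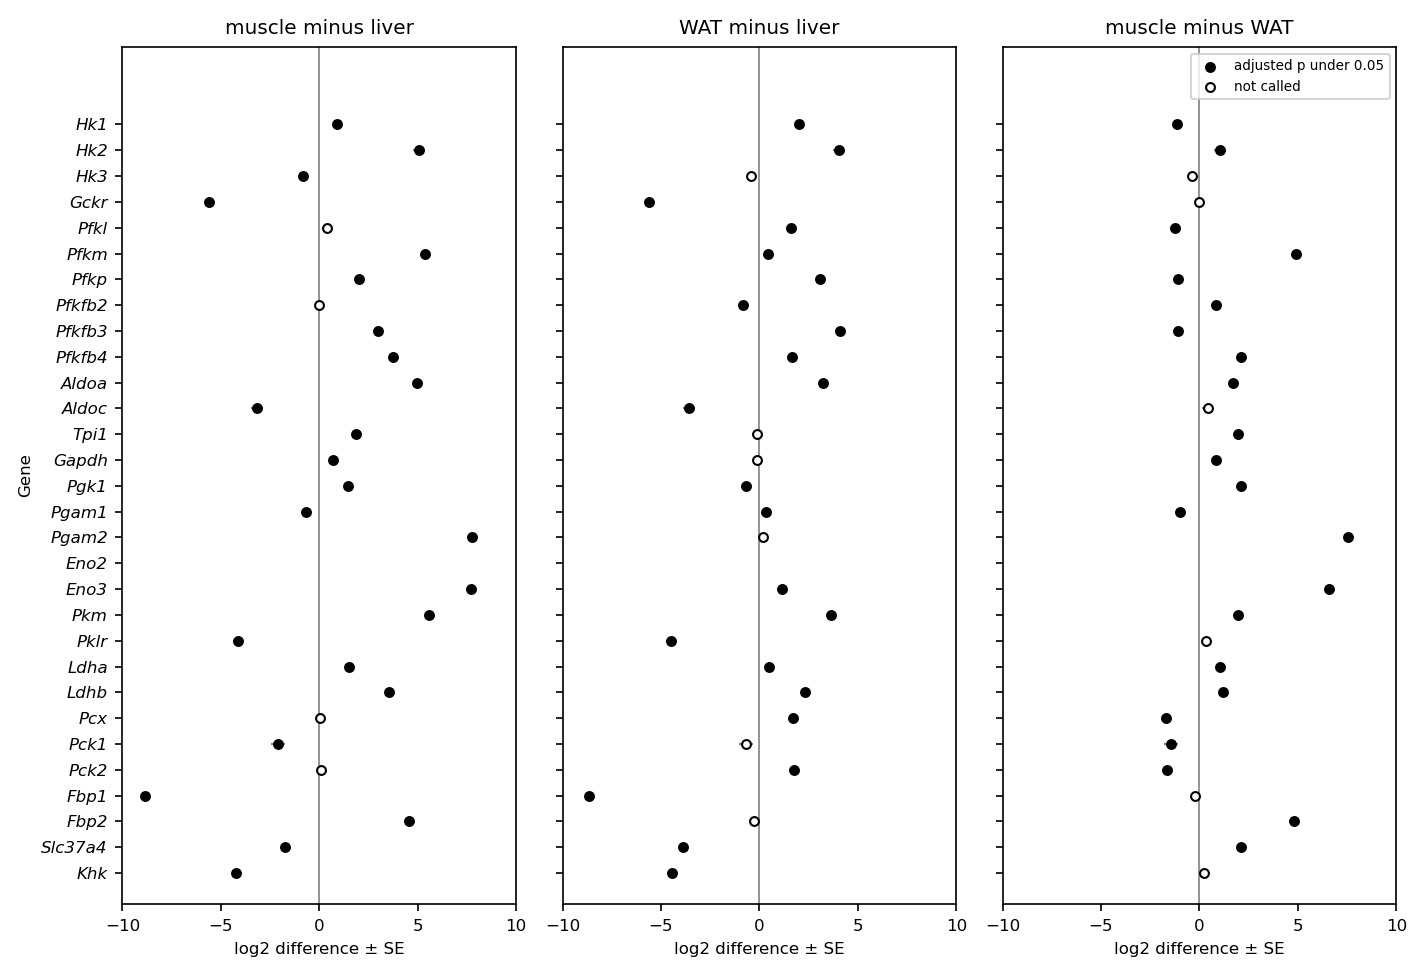
Log2 difference ± SE of each gene between tissues, from limma on 12 arrays (4 per tissue). Filled points passed an adjusted p of 0.05 and open points did not. Fbp1 lies farthest below 0 against liver and Pgam2 and Eno3 farthest above 0 in muscle.

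Hexokinases trap glucose as glucose-6-phosphate. Hk2, the insulin-responsive form of muscle and fat, was high in muscle and WAT and dim in liver. Its intensities were 2499 and 2521 after UAG and 2734 and 2053 after saline on the muscle arrays, 1226 and 1297 after UAG and 1941 and 615 after saline on the WAT arrays, and 79.4 and 69.5 after UAG and 51.9 and 93.7 after saline on the liver arrays. No array of muscle or WAT came near the liver range, and the log2 difference was 5.08 ± 0.30 (adjusted p = 8.43e-08) in muscle and 4.03 ± 0.30 (adjusted p = 7.10e-07) in WAT against liver, which is 33.9-fold and 16.3-fold. Muscle exceeded WAT by 1.05 ± 0.30 (adjusted p = 0.0137), a call that was lost without the first muscle saline array (0.95, adjusted p = 0.0571). Hk1, the broadly expressed form, ran the other way between these tissues. Its intensities were 174 and 170.2 after UAG and 145 and 199 after saline on the muscle arrays, 327 and 341 after UAG and 343 and 527 after saline on the WAT arrays, and 113 and 103 after UAG and 84.7 and 75.8 after saline on the liver arrays. It was highest in WAT (2.02 ± 0.16, adjusted p = 9.94e-07 against liver) and lower in muscle than in WAT (-1.14 ± 0.16, adjusted p = 1.52e-04). Hk3, a form known from white blood cells, stayed dim at 44.6 to 136 on all arrays, with muscle below liver (log2 difference -0.82 ± 0.21, adjusted p = 0.00582), and the other differences were not called. Gckr, the protein that holds liver glucokinase in the nucleus, was under the floor of 30 on every array of muscle and WAT, against 1436 and 1506 after UAG and 1568 and 1413 after saline on the liver arrays. It was therefore at least 49.3-fold lower in muscle and in WAT than in liver (limma adjusted p = 1.26e-11 and 1.50e-11).

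Phosphofructokinase-1 commits sugar phosphate to glycolysis and is built from muscle, liver and platelet-type subunits. Pfkm, the muscle subunit, was at 10380.4 and 9904 after UAG and 11228 and 9063 after saline on the muscle arrays, 296 and 309.7 after UAG and 425 and 329 after saline on the WAT arrays, and 218 and 247 after UAG and 269 and 256 after saline on the liver arrays. The muscle arrays lay far above all others, by 5.36 ± 0.11 (adjusted p = 1.07e-11) against liver (41-fold) and 4.91 ± 0.11 (adjusted p = 1.69e-10) against WAT, while WAT and liver differed by only 0.45 ± 0.11 (adjusted p = 0.00506). Pfkl, named for liver, was not highest there. It was at 393 and 350.2 after UAG and 649 and 519 after saline on the muscle arrays, 978 and 946 after UAG and 2012 and 744 after saline on the WAT arrays, and 414 and 265 after UAG and 417 and 331 after saline on the liver arrays. WAT exceeded liver by 1.63 ± 0.26 (adjusted p = 3.04e-04) and muscle was lower than WAT (-1.23 ± 0.26, adjusted p = 0.0027), whereas muscle and liver overlapped (0.40 ± 0.26, adjusted p = 0.208). Pfkl was highest on the first WAT saline array, the one with brown fat and fibre markers, and without it WAT still exceeded liver by 1.27 (adjusted p = 9.85e-05). Pfkp, the platelet-type subunit, was at 188 and 197 after UAG and 231 and 244 after saline on the muscle arrays, 459 and 422 after UAG and 609 and 379.7 after saline on the WAT arrays, and 54.1 and 51.2 after UAG and 68.1 and 43.9 after saline on the liver arrays. It followed the order WAT, muscle, liver with no overlap, with 3.10 ± 0.18 (adjusted p = 6.76e-08) for WAT and 1.99 ± 0.18 (adjusted p = 2.26e-06) for muscle against liver.

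The bifunctional enzymes of the PFKFB family make and degrade fructose-2,6-bisphosphate, the main activator of phosphofructokinase-1. Pfkfb3, the form in which the kinase activity prevails most, was at 820.4 and 718 after UAG and 841 and 1712 after saline on the muscle arrays, 2819 and 2219.8 after UAG and 1347 and 2038 after saline on the WAT arrays, and 172 and 114 after UAG and 99.5 and 111 after saline on the liver arrays. WAT was 16.8-fold and muscle 7.91-fold above liver (4.07 ± 0.23, adjusted p = 5.45e-08, and 2.98 ± 0.23, adjusted p = 6.21e-07). Muscle averaged below WAT (-1.09 ± 0.23, adjusted p = 0.00221), but the second muscle saline array at 1712 lay within the WAT range. Pfkfb4 was highest in muscle, at 439 to 708, while WAT had 124 to 169 and liver 27.0 to 64.5, and all 3 differences were called (3.74, 1.65 and 2.09 for muscle against liver, WAT against liver and muscle against WAT). Pfkfb2, the heart form, was at 108 to 141 in muscle, 57.2 to 82.9 in WAT and 103 to 153 in liver, which put WAT below liver (-0.85 ± 0.16, adjusted p = 7.28e-04) and muscle above WAT (0.84 ± 0.16, adjusted p = 0.00109). These Pfkfb2 differences rested on its brightest probe set, since the mean of its 4 probe sets gave -0.25 (adjusted p = 0.0887) and -0.03 (adjusted p = 0.88).

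Aldolase splits fructose-1,6-bisphosphate into triose phosphates. Aldoa, the muscle form, was at 14661 and 15541 after UAG and 16178 and 15162 after saline on the muscle arrays, 4280.1 and 3747 after UAG and 7952 and 3624 after saline on the WAT arrays, and 502 and 466 after UAG and 492 and 507 after saline on the liver arrays. Each tissue had its own range, and muscle was 31.3-fold and WAT 9.43-fold above liver (4.97 ± 0.20, adjusted p = 2.41e-09, and 3.24 ± 0.20, adjusted p = 1.10e-07). Its 4 brightest probe sets gave 4.58 to 5.05 for muscle against liver, but the fifth, with a mean intensity of 1103, gave 1.59 for muscle and 0.65 for WAT, both against liver. All 5 are of the x type, in which some probes match other transcripts too. Aldoc, best known as the brain form, was measured above the floor mainly in liver. It was under 30 on 3 of 4 muscle arrays, the exception being the second saline array at 95.3, and on all WAT arrays, against 311 and 412 after UAG and 339 and 379 after saline on the liver arrays. WAT was at least 11.9-fold lower than liver, and muscle was lower too (-3.16 ± 0.29, adjusted p = 3.19e-06, with values under 30 set to 30). A second probe set of Aldoc, with a mean intensity of 6.90, stayed under 30 on every array, liver included. The Aldoc differences, and its ratio to Aldoa below, thus rested on the brighter probe set alone.

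Triosephosphate isomerase (Tpi1), Gapdh and phosphoglycerate kinase (Pgk1) were bright in all tissues and brightest in muscle. Tpi1 was at 10811 and 10210.3 after UAG and 10486 and 8974 after saline on the muscle arrays, 2965 and 2866 after UAG and 2556 and 2021 after saline on the WAT arrays, and 2675 and 3005 after UAG and 2879.7 and 2481 after saline on the liver arrays. Muscle exceeded liver by 1.87 ± 0.11 (adjusted p = 1.00e-07) and WAT by 1.97 ± 0.11 (adjusted p = 2.59e-07), while WAT and liver overlapped (-0.10 ± 0.11, adjusted p = 0.492). Pgk1 was at 8306 and 8588 after UAG and 8667 and 7815 after saline on the muscle arrays, 1547 and 1702 after UAG and 2913 and 1829.7 after saline on the WAT arrays, and 2862 and 3292 after UAG and 3229 and 2888 after saline on the liver arrays. It was called in every comparison, with muscle above liver (1.45 ± 0.14, adjusted p = 5.17e-06) and WAT below it (-0.66 ± 0.14, adjusted p = 0.00205). Only the first WAT saline array reached the liver range of Pgk1. Gapdh, a common reference gene, was at 14199 to 15119 in muscle, 7317 to 10950 in WAT and 8199 to 10447 in liver. It was higher in muscle than in liver (0.69 ± 0.14, adjusted p = 0.0017) and than in WAT (0.83 ± 0.14, adjusted p = 6.98e-04), and WAT and liver were not told apart (-0.15 ± 0.14, adjusted p = 0.411).

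Phosphoglycerate mutase and enolase gave wide contrasts of muscle with the other tissues. Pgam2 encodes the muscle subunit of the mutase and Pgam1 the subunit found in most tissues. The promoters of this pair are shown because their genes split by tissue, and a MEF2 motif, the site of the muscle factor MEF2, was searched in each. They are 200 bases before the start of each gene, from RefSeq on GRCm38.p6 (chr11:5803797-5803996, minus strand for Pgam2, chr19:41911671-41911870, plus strand for Pgam1), with the motif match in capitals.
Pgam2: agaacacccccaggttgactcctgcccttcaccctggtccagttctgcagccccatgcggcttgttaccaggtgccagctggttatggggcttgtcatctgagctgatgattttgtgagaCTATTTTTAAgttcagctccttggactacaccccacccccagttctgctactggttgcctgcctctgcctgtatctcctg
Pgam1: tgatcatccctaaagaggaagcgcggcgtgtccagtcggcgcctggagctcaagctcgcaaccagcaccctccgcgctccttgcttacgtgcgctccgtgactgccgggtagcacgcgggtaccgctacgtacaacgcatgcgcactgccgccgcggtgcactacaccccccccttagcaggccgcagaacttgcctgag
The Pgam2 window held 1 match, starting 80 bases before the start, and the Pgam1 window held none. Over windows of 300 bases (250 before to 50 after each start), searched on both strands, 3.19% of 32851 promoters held a match, and 2 of the 54 promoters of the 33 genes did (3.7%), those of Pgam2 and Pfkfb1.

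Pgam2 was at 7055 and 6129 after UAG and 7038 and 5454 after saline on the muscle arrays. On the liver arrays it stayed under 30 throughout, and on the WAT arrays only the first saline array passed 30, at 50.3. Muscle was thus at least 213-fold higher than liver (7.73 ± 0.16, adjusted p = 1.19e-11), and WAT and liver were not told apart (0.19 ± 0.16, adjusted p = 0.353). Pgam1 was lowest in muscle. Its intensities were 692 and 672 after UAG and 841 and 881 after saline on the muscle arrays, 1407 and 1354 after UAG and 2041 and 1450.4 after saline on the WAT arrays, and 1296 and 1222 after UAG and 1317 and 1093 after saline on the liver arrays. Muscle lay below liver (-0.68 ± 0.12, adjusted p = 4.00e-04) and below WAT (-1.01 ± 0.12, adjusted p = 4.40e-05). The small excess of WAT over liver (0.33 ± 0.12, adjusted p = 0.0319) was not called without the first WAT saline array (0.20, adjusted p = 0.0915), the array with the highest Pgam1. Eno3, the muscle enolase, was at 14661 and 16259.8 after UAG and 14466 and 16256 after saline on the muscle arrays, 133 and 144 after UAG and 246 and 140.3 after saline on the WAT arrays, and 68.8 and 98.4 after UAG and 68.9 and 62.0 after saline on the liver arrays. Muscle stood 210-fold above liver (7.71 ± 0.17, adjusted p = 1.81e-11) and 96-fold above WAT (6.58 ± 0.17, adjusted p = 4.54e-10). In WAT Eno3 was highest on the array with fibre markers, and WAT still exceeded liver without it (0.93, adjusted p = 0.000196, against 1.13 with it). Eno2, the neuronal enolase, was at 31.9 to 73.4 in WAT, under 30 on 3 of 4 muscle arrays and under 30 on all liver arrays.

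Pyruvate kinase closes glycolysis. Pkm encodes the muscle and general forms and Pklr the liver and red cell form, and they split between tissues in opposite directions. Pkm was at 6099 and 5663 after UAG and 6758 and 5008 after saline on the muscle arrays, 1252 and 1105 after UAG and 2992 and 1306 after saline on the WAT arrays, and 139 and 89.3 after UAG and 119.8 and 153 after saline on the liver arrays. Muscle was 47.6-fold and WAT 12.4-fold above liver (5.57 ± 0.24, adjusted p = 4.88e-09, and 3.63 ± 0.24, adjusted p = 2.24e-07). The first WAT saline array had the highest Pkm of WAT, and without it WAT exceeded liver by 3.34. Pklr was at 58.1 and 24.6 after UAG and 11.1 and 40.8 after saline on the muscle arrays and under 30 on all WAT arrays, against 704 and 579.5 after UAG and 887 and 596 after saline on the liver arrays. WAT was at least 22.7-fold lower than liver, and muscle was lower too (-4.16 ± 0.22, adjusted p = 3.54e-08).

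Lactate dehydrogenase is a tetramer of Ldha and Ldhb subunits, the first favouring pyruvate to lactate. Ldha was bright in all tissues, at 12213 and 11831 after UAG and 12641 and 11931 after saline on the muscle arrays, 5732 and 5668 after UAG and 7690.4 and 5172 after saline on the WAT arrays, and 4791 and 4188 after UAG and 3890.4 and 4299 after saline on the liver arrays. Muscle exceeded liver by 1.51 ± 0.13 (adjusted p = 2.22e-06) and WAT by 1.02 ± 0.13 (adjusted p = 1.02e-04). Ldhb, the heart form, varied more. It was at 1981 and 1532 after UAG and 1478 and 1731 after saline on the muscle arrays, 574 and 671 after UAG and 1171 and 628 after saline on the WAT arrays, and 173 and 155 after UAG and 124 and 136 after saline on the liver arrays. Muscle was 11.5-fold and WAT 5.01-fold above liver (3.52 ± 0.18, adjusted p = 2.08e-08, and 2.32 ± 0.18, adjusted p = 8.23e-07), and its other 3 probe sets gave 4.22 to 5.32 for muscle against liver.

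The gluconeogenic enzymes did not share a pattern. Pyruvate carboxylase (Pcx), which makes oxaloacetate for gluconeogenesis and for fatty acid synthesis, was at 1208 and 1467 after UAG and 1377 and 2233 after saline on the muscle arrays, 4428 and 4528 after UAG and 6900.5 and 4474 after saline on the WAT arrays, and 1761 and 1413 after UAG and 1457 and 1451 after saline on the liver arrays. WAT exceeded liver by 1.72 ± 0.18 (adjusted p = 8.81e-06) and muscle was lower than WAT (-1.71 ± 0.18, adjusted p = 2.04e-05), while muscle and liver overlapped (0.01 ± 0.18, adjusted p = 0.957). Pck1, the cytosolic phosphoenolpyruvate carboxykinase, which in fat serves glyceroneogenesis, was at 2099 and 1943 after UAG and 1083 and 3683 after saline on the muscle arrays, 7515 and 6377 after UAG and 2645 and 6630.0 after saline on the WAT arrays, and 9104 and 9549 after UAG and 6767 and 9214 after saline on the liver arrays. It was lower in muscle than in liver (-2.09 ± 0.36, adjusted p = 3.89e-04), and WAT and liver were not told apart (-0.67 ± 0.36, adjusted p = 0.129). On the muscle arrays Pck1 and the 4 adipocyte markers were both lowest on the first saline array (1083 and 22480). Both were highest on the second saline array (3683 and 33440). Between the UAG arrays the order was opposite, with 2099 and 25590 on the first and 1943 and 29660 on the second. The part of adipocyte RNA in the muscle levels of Pck1, Pcx and Pfkfb3 was not tested. Pck2, the mitochondrial form, was at 193 to 272 in WAT, against 63.9 to 97.1 in muscle and 58.1 to 83.0 in liver. WAT was 3.35-fold above liver (1.74 ± 0.18, adjusted p = 8.42e-06), and muscle and liver overlapped (0.08 ± 0.18, adjusted p = 0.719).

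Fructose-1,6-bisphosphatase reverses the phosphofructokinase step, through Fbp1 in liver and Fbp2 in muscle. The pair lies on the same chromosome and strand, and its promoters are shown because the genes split sharply between muscle and liver. The 200 bases before each start come from RefSeq on GRCm38.p6 (chr13:62858401-62858600, minus strand for Fbp2, chr13:62888283-62888482, minus strand for Fbp1), with matches to CACGTG, the palindromic E-box, in capitals.
Fbp2: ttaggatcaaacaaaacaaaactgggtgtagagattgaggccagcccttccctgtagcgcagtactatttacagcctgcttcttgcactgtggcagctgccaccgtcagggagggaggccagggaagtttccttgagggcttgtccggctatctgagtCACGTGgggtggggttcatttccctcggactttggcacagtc
Fbp1: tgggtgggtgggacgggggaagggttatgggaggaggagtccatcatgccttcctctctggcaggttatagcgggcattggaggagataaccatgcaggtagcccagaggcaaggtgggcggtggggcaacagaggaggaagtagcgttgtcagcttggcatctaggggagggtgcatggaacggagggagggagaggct
The Fbp2 window held 1 match, starting 42 bases before the start, and the Fbp1 window none. Over windows of 300 bases, 7.15% of 32851 promoters held CACGTG, as did 7 of the 54 promoters of the 33 genes (13%), those of 7 genes (Pfkfb2, Pfkfb3, Khk, Ldha, Fbp2, Pfkm and Pcx). These 7 genes lay on no common side between tissues, with Fbp2, Pfkm and Ldha highest in muscle, Pfkfb3 and Pcx in WAT, and Khk in liver. For Pfkfb2 no tissue was called above both others. No promoter of the 33 genes held the core of the HNF1 motif, the site of a liver factor, which 0.399% of all promoters held.

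On the muscle arrays Fbp1 passed 30 only once, at 30.4, and on the WAT arrays it reached at most 52.2, again on the first saline array. The liver arrays had 12838 and 17426 after UAG and 13636 and 12377 after saline. Against liver the log2 difference was -8.85 ± 0.17 (adjusted p = 5.16e-12) for muscle and -8.63 ± 0.17 (adjusted p = 7.44e-12) for WAT, with values under 30 set to 30. Fbp2 was at 1097 and 1017 after UAG and 1049 and 937 after saline on the muscle arrays, 8.64 and 35.2 after UAG and 58.9 and 25.7 after saline on the WAT arrays, and 54.0 and 37.2 after UAG and 36.8 and 51.3 after saline on the liver arrays. The muscle arrays stood 23.2-fold above liver (4.54 ± 0.22, adjusted p = 1.60e-08) and apart from all others, and WAT and liver overlapped (-0.26 ± 0.22, adjusted p = 0.347). Slc37a4, the carrier that takes glucose-6-phosphate into the endoplasmic reticulum for glucose release, was at 628 to 1170.1 in muscle, 163 to 259 in WAT and 2794 to 3369 in liver. Muscle and WAT were below liver (-1.75 ± 0.20, adjusted p = 1.60e-05, and -3.87 ± 0.20, adjusted p = 2.63e-08), and muscle exceeded WAT by 2.12 ± 0.20 (adjusted p = 1.02e-05). Khk, which starts fructose breakdown, was at 96.6 to 162 in muscle, 97.5 to 142 in WAT and 2147 to 2927 in liver. It was 18.8-fold lower in muscle and 21.6-fold lower in WAT than in liver (-4.23 ± 0.17, adjusted p = 2.66e-09, and -4.44 ± 0.17, adjusted p = 2.14e-09).

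To compare isozymes within an array, the log2 difference between both members of a pair was taken on each array and compared between tissues. The absolute value of such a difference mixes probe properties with RNA level, so only its shift between tissues was read. Both members were measured for 10 pairs, which gave 30 comparisons of 4 arrays against 4 with an exact two-sided permutation test (smallest possible p = 0.0286). In 23 of the 30 the arrays of both tissues did not overlap, each with an adjusted p of 0.0373 over the 30. How often pairs of other genes stand apart was not computed, so this count was not read as a trait of isozymes. Of all single genes, limma called 66.3% in muscle against liver, 62.9% in WAT against liver and 55.9% in muscle against WAT. The Fbp2/Fbp1 ratio shifted by 13.39 ± 0.24 on the log2 scale in muscle against liver and by 8.38 ± 0.24 in WAT against liver. Pklr/Pkm shifted by -9.73 ± 0.33 in muscle and by -8.14 ± 0.39 in WAT, both against liver. For Pgam2/Pgam1 the shift was 8.41 ± 0.17 in muscle against liver. Its shift in WAT against liver (-0.14 ± 0.08, exact permutation p = 0.143) was not read. There Pgam2 was set to 30 on 3 of 4 WAT arrays and all 4 liver arrays, so the ratio mostly followed Pgam1. Because values under 30 were set to 30, the shifts of Pklr/Pkm and Aldoc/Aldoa in WAT and of Pgam2/Pgam1 in muscle, each against liver, are lower limits in size. For Fbp2/Fbp1 the floor replaced Fbp1 on 3 of 4 muscle arrays and each gene on 2 of 4 WAT arrays, so the sizes of these shifts were not ranked.

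The phosphofructokinase subunits sorted the tissues differently. Pfkm/Pfkl was higher in muscle than in liver by 4.95 ± 0.26 and than in WAT by 6.13 ± 0.29, and lower in WAT than in liver (-1.18 ± 0.28). Pfkp/Pfkl was higher in muscle and in WAT than in liver, by 1.59 ± 0.19 and 1.47 ± 0.21, and did not differ detectably between muscle and WAT (0.12 ± 0.22, exact permutation p = 0.571). For Ldhb/Ldha the shifts were 2.01 ± 0.12 and 1.84 ± 0.14 against liver and 0.18 ± 0.16 between muscle and WAT (p = 0.314 by the same exact test). Hk2/Hk1 was higher in muscle than in liver by 4.21 ± 0.29 and than in WAT by 2.20 ± 0.52. In WAT against liver its shift of 2.01 ± 0.54 did not pass (exact permutation p = 0.0571), since the second WAT saline array, with 615 for Hk2 and 527 for Hk1, fell into the liver range. That array was the one high in smooth muscle markers, whose part in the shift was not tested. Pck2/Pck1 was above liver in muscle (2.17 ± 0.32) and in WAT (2.42 ± 0.34).

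**Figure D3:**
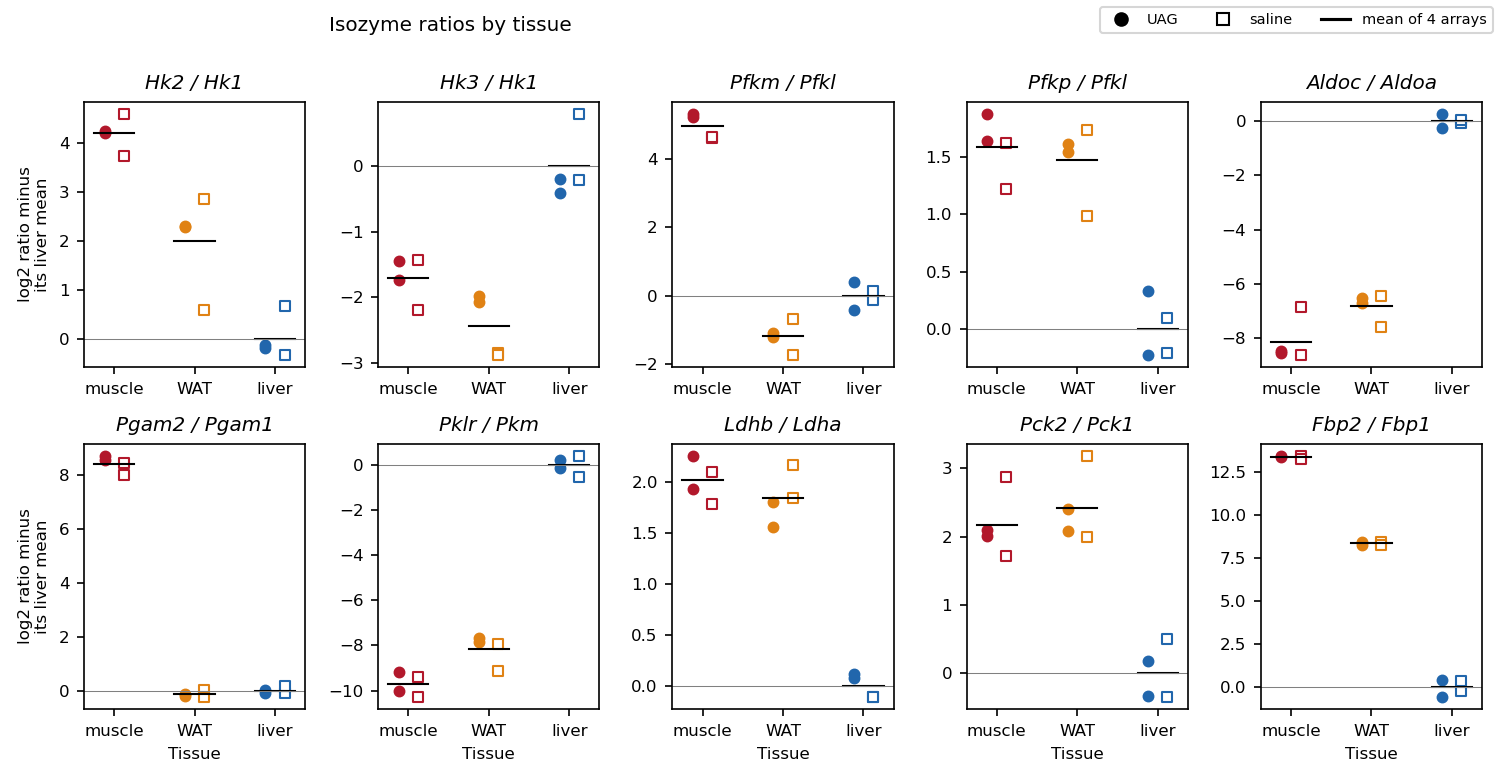
Log2 ratio of 10 isozyme pairs on each array, minus its mean over the 4 liver arrays, by tissue, with filled circles for UAG, open squares for saline and a line at the mean of 4 arrays. Fbp2/Fbp1 and Pgam2/Pgam1 are highest in muscle, Pklr/Pkm and Aldoc/Aldoa highest in liver among the 3 tissues.

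Around these steps, a wider list of 27 other enzymes and carriers of sugar and pyruvate metabolism had 21 measured and 17 tested genes. Of the 17, 10 were higher and 6 lower in muscle against liver and 4 higher and 6 lower in WAT against liver. In muscle against WAT 7 were higher and 2 lower. Of all genes, 35.2% were higher and 31.1% lower in muscle against liver, and 35.6% and 27.3% in WAT against liver. In muscle against WAT the shares of all genes were 23% higher and 32.9% lower. G6pc, the catalytic subunit of glucose-6-phosphatase, was under 30 on every array of muscle and WAT, against 1856 and 3137 after UAG and 2160 and 2442 after saline in liver. It was at least 78.5-fold lower in muscle and in WAT than in liver (limma adjusted p = 6.47e-11 and 7.83e-11). Tkfc, the triokinase of fructose breakdown, was also liver-high (-4.60 for muscle, with 3 of 4 arrays set to 30, and -4.34 for WAT, with 1 of 4). Slc16a3, the lactate exporter MCT4, was at 592 and 638 after UAG and 820.2 and 370 after saline in muscle and under 30 on every array of liver and WAT, so it was at least 19.4-fold higher in muscle than in each. Tigar, a fructose-2,6-bisphosphatase, and Bpgm, which makes 2,3-bisphosphoglycerate, were higher in muscle than in WAT, by 3.45 and 2.32. Pdk4, which blocks pyruvate dehydrogenase, was higher than in liver by 5.73 in muscle and by 3.47 in WAT. Of 12 regulators 11 were tested, with 5 higher and 1 lower in muscle against liver. There were 7 higher and 2 lower in WAT against liver, and 5 higher and 2 lower in muscle against WAT. The shares of all genes above apply to these counts too, and neither list was read as set apart by its counts. Mef2c, a muscle factor of the MEF2 family, was higher in muscle by 5.50 against liver and 3.96 against WAT. Hnf4a, a liver factor, was under 30 on all muscle and WAT arrays and at least 79.6-fold lower in each than in liver. Txnip was higher than in liver by 2.19 in muscle and by 2.72 in WAT. Ppargc1a was lower in WAT than in liver (-1.90) and higher in muscle than in WAT (2.26). Mlxip was higher in muscle than in WAT by 0.98.

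The injection of UAG addressed whether the peptide alters metabolic genes in the absence of the receptor, and no gene of the set was called for it in any tissue. In WAT 26 genes were tested by limma on the 4 arrays, in muscle 27 and in liver 28, and 0 passed an adjusted p of 0.05, beside 0% of all genes in each tissue. At an unadjusted p under 0.05 the WAT fit had 0 of them (7.12% of all genes), the muscle fit 1 (1.84%) and the liver fit 0 (3.38%). By the 2-fold ratio of means used in the study, 1 gene passed, Aldoc in muscle, with 0 in WAT and in liver, beside 1.63% of all genes in WAT, 0.418% for muscle and 0.396% for liver. Aldoc was at 20.9 and 28.6 after UAG and 4.51 and 95.3 after saline, so the ratio of 0.479 came from a single saline array above the floor, and the groups overlapped.

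**Figure D4:**
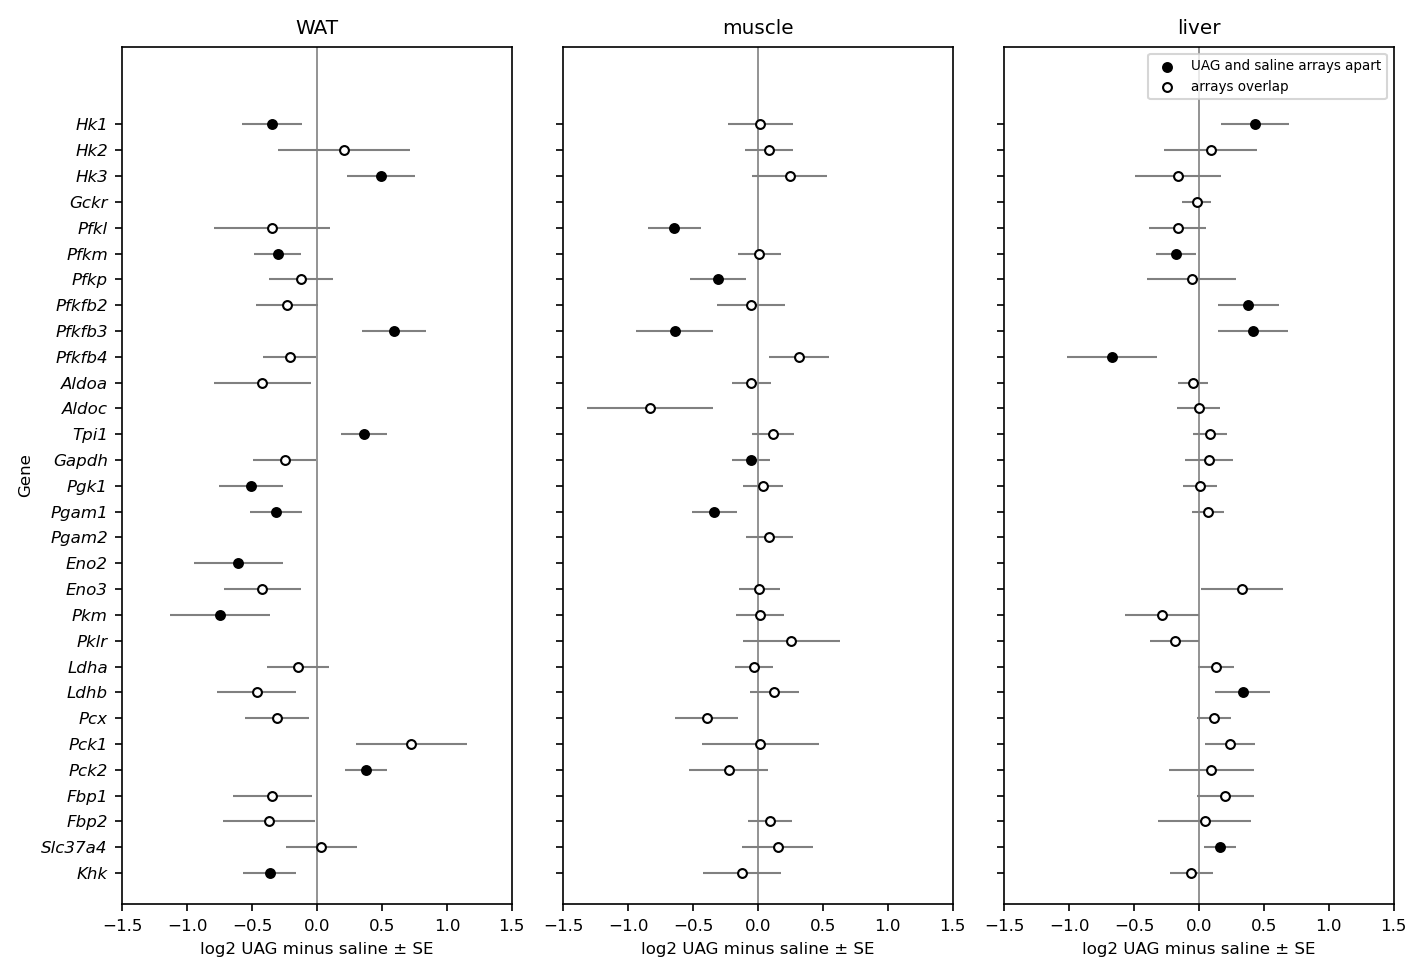
Log2 UAG minus saline ± SE for each gene tested, from limma on the 4 arrays of a tissue. Filled points are genes whose 2 UAG arrays and 2 saline arrays did not overlap, and no gene passed an adjusted p of 0.05.

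The single gene under an unadjusted p of 0.05 was Pfkl in muscle. It was at 393 and 350.2 after UAG and 649 and 519 after saline. Both UAG arrays were below both saline arrays (log2 difference -0.65 ± 0.20, unadjusted p = 0.0116, adjusted p = 0.9999), and the second probe set of Pfkl gave -0.68 and the third, a dim one, 0.05. Over 13 alternative settings the difference was -0.81 to -0.40, with unadjusted p from 0.00534 to 0.113. In WAT Pfkl was at 978 and 946 after UAG and 2012 and 744 after saline, and in liver at 414 and 265 after UAG and 417 and 331 after saline, with overlap in both. The partner subunit Pfkp was also lower in muscle after UAG (-0.31 ± 0.22, unadjusted p = 0.189, arrays apart), and Pfkm had a difference near 0 (0.01 ± 0.17, unadjusted p = 0.965).

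On its brightest probe set, Pfkfb3 pointed in different directions by tissue, with the UAG and saline arrays apart in all 3. On its second probe set the arrays overlapped in every tissue, with log2 differences of 0.04 in WAT, -0.53 in muscle and 0.29 in liver. In WAT it was at 2819 and 2219.8 after UAG and 1347 and 2038 after saline (0.59 ± 0.25, unadjusted p = 0.0552). Without the first WAT saline array, the one with brown fat and fibre markers, the difference was 0.30, and without the second it was 0.89. In muscle it was at 820.4 and 718 after UAG and 841 and 1712 after saline (-0.64 ± 0.30, unadjusted p = 0.0612). The muscle difference rested on the second saline array, and without that array it was -0.13. Among the muscle arrays, that array was highest in adipocyte markers and in epithelial and mesothelial markers, whose part was not tested. In liver Pfkfb3 was at 172 and 114 after UAG and 99.5 and 111 after saline (0.42 ± 0.27, unadjusted p = 0.16). The UAG effect in muscle minus that in WAT was -1.24 ± 0.45 (unadjusted p = 0.0199, adjusted p = 1). Across the comparisons of UAG effects between tissues, 0 of 29 genes passed in each, with 2, 2 and 1 genes at an unadjusted p under 0.05 for muscle against liver, WAT against liver and muscle against WAT. Of all genes tested, 0%, 0% and 0.00794% passed these comparisons, and 2.49%, 4.53% and 3.65% had an unadjusted p under 0.05.

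In WAT 19 of the 26 tested genes had a lower mean after UAG and 7 a higher one, beside 45.6% lower and 54.4% higher among all genes, and their median log2 difference was -0.31 against 0.03 over all genes. This lean rested on 1 array. Without the first WAT saline array, 11 of 24 genes were lower. Pkm was at 1252 and 1105 after UAG and 2992 and 1306 after saline, and Pgk1 at 1547 and 1702 after UAG and 2913 and 1829.7 after saline. In both, the first saline array was far above the second, and the UAG arrays were just below it. Pck1 went the other way, with 7515 and 6377 after UAG and 2645 and 6630.0 after saline, low on that same array (0.73 ± 0.43, unadjusted p = 0.144). The part of the brown fat and muscle fibre RNA of that array in these differences was not tested.

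Arrays of the UAG and saline groups did not overlap for 11 of 26 genes in WAT (beside 38.1% of all genes), 5 of 27 in muscle (21.6%) and 7 of 28 in liver (29.7%), so the members' shares of 42.3%, 18.5% and 25% were near the background. Among the 11 in WAT were Tpi1 (0.36) and Pck2 (0.38), both higher, and Pgam1 (-0.32) and Khk (-0.37), both lower. In muscle all 5 were lower after UAG, namely Pfkl, Pfkp, Pfkfb3, Pgam1 and Gapdh, the last by 0.05 on the log2 scale. In liver Hk1 (0.43), Pfkfb2 (0.38), Pfkfb3, Ldhb (0.34) and Slc37a4 (0.16) were higher, and Pfkm (-0.18) and Pfkfb4 (-0.67) lower. None of these passed the adjusted threshold. A dim second probe set of Hk1 gave -0.06 in liver, and Pfkfb4 on the first liver UAG array (27.0) was set to 30. The other probe sets of Ldhb gave 0.77, 0.02 and 0.20 in liver, with the UAG and saline arrays apart only for the one at 0.77. In muscle 15 tested genes had a higher and 12 a lower mean after UAG (52.3% and 47.7% of all genes), and in liver 17 a higher and 11 a lower one (51.6% and 48.4%). The median log2 difference of the set was 0.01 in muscle and 0.07 in liver, beside 0.01 for both over all genes. Of the gluconeogenic genes in liver, Pck1 was at 9104 and 9549 after UAG and 6767 and 9214 after saline, and Fbp1 at 12838 and 17426 after UAG and 13636 and 12377 after saline, and the groups overlapped for both. The other pathway enzymes and the regulators had 0 calls for UAG in any tissue as well.

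**Figure D5:**
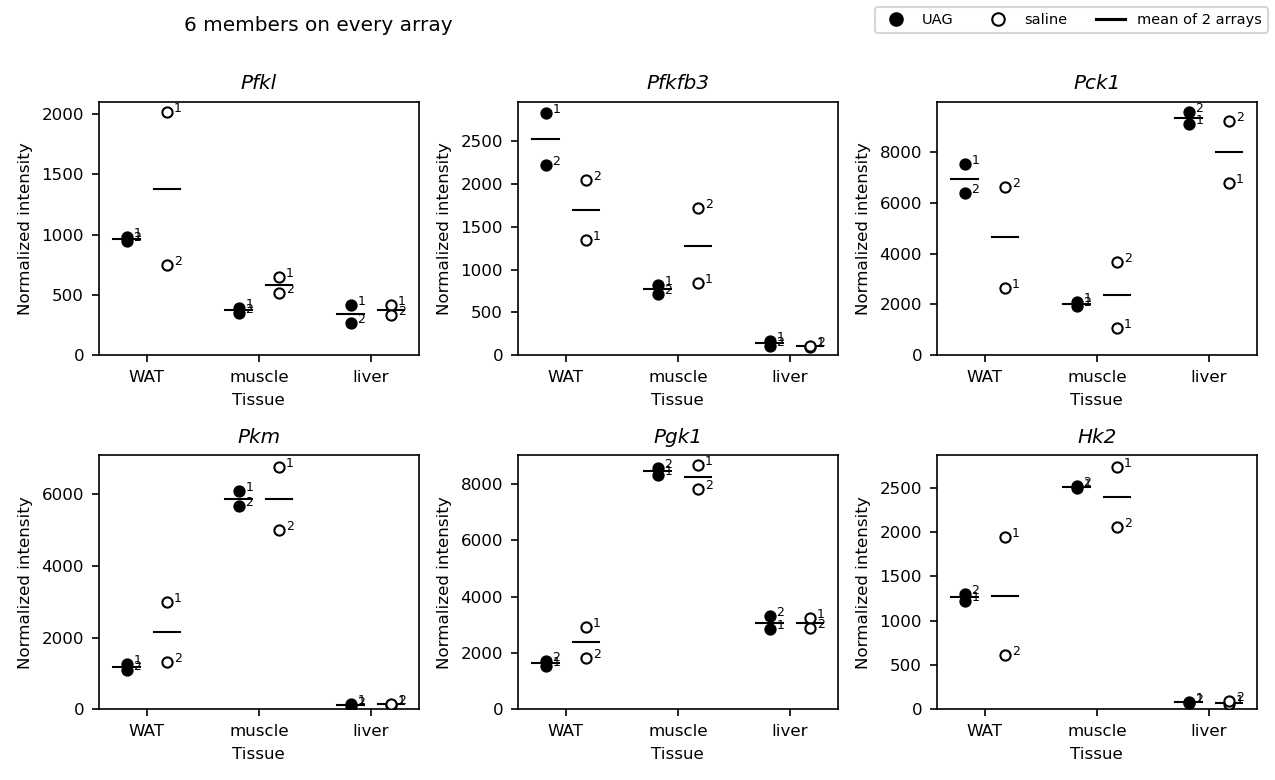
Normalized intensity of 6 genes on every array, by tissue, with UAG (filled) left of saline (open), the replicate number beside each point and a line at the mean of 2 arrays. Among the WAT arrays, the first saline array is highest for Pfkl, Pkm, Pgk1 and Hk2 and lowest for Pfkfb3 and Pck1.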

How the data were processed

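RNA of 12 tissue samples was hybridised to Affymetrix Mouse Genome 430 2.0 arrays. The authors deposited log intensity values, which were read as log2. MAS5, with no version, stands in the submitters' processing notes. The study's methods add quantile normalization, a cut of intensities at 30 and a call by a ratio of means of 2. The log base was not given in the sources used here. The number of arrays limits the precision. Probe sets were named by the platform annotation: 34948 had 1 gene, 932 several and 9160 none, and those of several genes were left out of gene counts. Control probe sets were left out except the 3 of Gapdh.

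Values were returned to intensity and values under 30 were set to 30. The level of a gene is that of its brightest probe set over the 12 arrays, and levels of different probe sets were not set against each other. limma 3.58.1 in R 4.3.3 was fitted with an intensity trend to probe sets whose mean intensity reached 30, namely 26533 for the tissue comparisons on 12 arrays with a mean per tissue and treatment, 25310 in WAT, 25108 in muscle and 25163 in liver for UAG against saline. Adjusted p-values are those of Benjamini and Hochberg over all probe sets of a fit. The fits take arrays as independent, and p-values measure the spread between these samples. The study gives n = 2 for the saline and UAG treated mice of the arrays. How much of the spread is technical was not tested. Isozyme ratios were compared with an exact permutation test. Both tests were checked on simulated data. No 2 arrays held identical values.

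The genes and lists were chosen with earlier results of these data known. The named genes were all 33 members, with other pathway genes described by counts and by the largest tissue differences. Alternatives were another floor or none, other scalings, the mean of the probe sets of a gene, no intensity trend, no filter, saline arrays alone, a replicate block, and each array left out. Promoter windows came from RefSeq, on GRCm38.p6, and the table held promoters for all 33 genes. Gpi1, Pfkfb1 and Eno1 were not analysed here.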

Additional observations from a re-analysis of the deposited data

Results flagged for a closer look

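In each tissue, the 4 arrays were tested for a single array standing apart by Dixon's criterion, in which the gap of the highest or lowest array to its neighbour is divided by the whole range, and set against its critical value. Of 84 groups of 4 arrays, 15 passed (17.9%, beside 8.78% over all genes tested), where chance gives about 1 in 20. In 4 of the 15 the other 3 arrays were all under 30 and set to 30, so any array above 30 passed by construction. Each group mixes 2 UAG and 2 saline arrays. In WAT 8 passed, 7 of them through the first saline array, the one with brown adipocyte and skeletal fibre markers. That array was the highest for Pgam1 (0.832), Pgam2 (1, at 50.3 with the others under 30), Eno3 (0.863), Pkm (0.832), Pcx (0.95) and Fbp1 (0.866), and the lowest for Pck1 (0.843, at 2645 against 6377 to 7515). For Hk1 the second WAT saline array was highest (0.896, at 527 against 327 to 343), which was also the array with the most smooth muscle markers.

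In muscle the second saline array was lowest for Pfkfb4 (0.834, at 439 against 654 to 708) and highest for Pck2 (0.869, at 97.1 against 63.9 to 67.5) and for Aldoc (1, the one array above 30). The first muscle UAG array was the one array above 30 for Eno2 (1) and Fbp1 (1), by a few units. In liver the first UAG array was highest for Pcx (0.86, at 1761 against 1413 to 1457), and the first saline array was lowest for Pck1 (0.862, at 6767 against 9104 to 9549). The cause of these values was not tested.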

How the results depend on the processing

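With an array left out, 25 to 26 genes were called in muscle against liver and 22 to 25 in WAT against liver. In muscle against WAT it was 23 to 25, and 23 to 25 isozyme comparisons stood apart. With the saline arrays alone, Hk3, Gapdh, Pgam1 and Pck1 missed the threshold in muscle against liver (limma adjusted p = 0.064, 0.064, 0.117 and 0.052). Of 1560 alternative values of the 71 called tissue differences, 1527 kept their direction and call, 32 missed the threshold and 1 changed sign, Pfkfb2 in muscle against WAT (-0.028 with the mean of its probe sets). Those that missed it belonged to 17 of the 71 differences, most often Pgam1 in WAT against liver. For UAG against saline and for the differences of UAG effects between tissues, 0 genes were called under any alternative run. The count of lower genes after UAG ranged over 11 to 21 (WAT), 12 to 17 (muscle) and 8 to 14 (liver) with an array left out, an alternative added after seeing the data, with 11 reached without the first WAT saline array. The 2-fold count in WAT was 0 to 3 with an array left out and 1 with no floor. In muscle it was 0 to 2 with an array left out, and 0 with a floor of 100, with the mean of the probe sets or with geometric means. Aldoc in muscle had 0.24 on the log2 scale with no floor, against -0.83 with it. Replicate numbers of the groups were not shown to pair samples: over 15 pairs of groups, deviations of same-numbered arrays correlated between -0.176 and 0.177, and 4 pairs exceeded 0.1. With the replicate block, 25, 24 and 23 genes were called in the 3 tissue comparisons and 0 for UAG, while over all probe sets the UAG calls were 22 in WAT, 0 in muscle and 17 in liver, against 0, 0 and 1 without it. Intensities near 30 set the limits for Aldoc, Pklr, Pgam2, Eno2, Fbp1 and Gckr outside their main tissue.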
